A study of Homo sapiens with 9 samples.

Results

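Aminoacyl-tRNA synthetases are the enzymes that join each amino acid to its tRNA. The array held 38 probes for 35 of their genes, out of 42405 probes for 35196 genes and other named features. The members were chosen by symbol, as the genes to which a probe's RefSeq accession mapped, and the rule uses no measured value, although the set was drawn up with earlier results of these data known. Of the 35 genes, 19 code for cytosolic enzymes and 16 for mitochondrial enzymes, whose symbols end in 2. The cells were HEK293, a line derived from human embryonic kidney. Every group, control included, carried a retroviral GFP vector expressing an shRNA and had been selected with puromycin as a stable population. KD3 carried shRNA 3 and KD4 carried shRNA 4, both directed at SmcHD1, a chromatin protein of the structural maintenance of chromosomes family, and CTL carried the control shRNA NC5. Each group was measured on 3 one-color Agilent arrays. The methods call the replicates biological triplicates and do not say whether these came from separate infections, so p-values measure the spread between preparations of stable populations.

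Charging of tRNA is the step at which the genetic code is read, since the ribosome does not check the amino acid that a tRNA brings. Cells keep largely separate sets of enzymes for the cytosol and for the mitochondrial matrix, both encoded in the nucleus. GARS1 and KARS1 each serve both compartments from a single gene and are counted here as cytosolic. Several of the cytosolic enzymes sit in a large multisynthetase complex held together by scaffold proteins. Many cytosolic synthetase genes are known targets of ATF4, the transcription factor that the integrated stress response uses to raise amino acid supply.

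SMCHD1 itself was lower on every knock-down array than on any CTL array. Its brightest probe read 11.20, 11.37 and 11.22 in CTL, 10.40, 10.16 and 10.32 in KD3, and 9.63, 9.80 and 9.77 in KD4, all as normalized log2 signals. The log2 difference from CTL was -0.97 in KD3 (limma adjusted p = 2.1e-04) and -1.53 in KD4 (limma adjusted p = 1.8e-05). All 3 of its probes fell in both knock-downs. The median processed signal of an array ranged from 119.6 to 181.4, between 74.6% and 79.2% of probes were well above background, and no spot was saturated, and 3 arrays per group set the precision throughout. The 9 markers of HEK293 cells examined were well above background on all 9 arrays, though PAX2, NEFM and NEFL fell in both knock-downs (log2 differences of -2.41, -1.21 and -0.33 in KD3 and of -2.65, -1.24 and -0.41 in KD4). KRT18 of the same list rose in KD4, with 0.34 (limma adjusted p = 0.0174), and the median of the 9 was -0.17 in KD3 and 0.0782 in KD4. Of 6 markers of other cell types, ALB of liver and KRT5 of keratinocytes were well above background on no array, and the other 4 had a probe at a mean log2 signal of at most 7.30, with 0 of the 4 passing in either knock-down (limma, adjusted p). At an unadjusted p under 0.05 the count was 1 in KD3 and 0 in KD4. The HEK293 markers PAX8 and NEFM, at mean log2 signals of 4.83 and 4.72, were dimmer than CD3E (5.15), INS (5.04) and TNNT2 (4.88). Being well above background thus did not separate the lists. In bulk RNA, fewer cells of a kind and less RNA per cell cannot be told apart.

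Of the 35 synthetase genes, 7 differed from CTL in both knock-downs, all by modest amounts. AARS1, CARS1, GARS1, LARS1 and SARS1, the cytosolic enzymes for alanine, cysteine, glycine, leucine and serine, fell in both knock-downs to between 66.3% and 81.4% of the CTL signal. RARS1, the cytosolic arginine enzyme, and AARS2, the mitochondrial alanine enzyme, rose in both. Of all 26701 tested genes, 2287 fell and 1879 rose in both by the same threshold. In KD3, 7 of the 35 genes passed an adjusted p of 0.05 by limma (5 lower and 2 higher), where 20.1% of all tested genes did, 10.5% lower and 9.57% higher. The share of members in KD3 was thus that of all genes. In KD4, 13 passed (9 lower and 4 higher), against 28.3% of all genes, 14.8% lower and 13.5% higher. The 2 comparisons share the CTL arrays.

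By location, 6 of the 19 cytosolic genes passed in KD3 (5 lower, 1 higher) and 10 in KD4 (7 lower, 3 higher). Among the 16 mitochondrial genes 1 passed in KD3, which was higher, and 3 in KD4, of which 2 were lower and 1 higher. Of all tested genes 20.1% passed in KD3 (10.5% lower, 9.57% higher) and 28.3% in KD4 (14.8% lower, 13.5% higher). The median log2 difference of the cytosolic genes was -0.0846 in KD3 and -0.24 in KD4. For the mitochondrial genes it was -0.0829 and -0.13, and for all tested genes 0.00914 and 0.0437. The cytosolic median minus the mitochondrial median was -0.00174 in KD3 and -0.11 in KD4. Lower signals than in CTL were found for 13 cytosolic genes in KD3 and 14 in KD4, and for 10 and 12 mitochondrial genes, while 48.5% and 44.2% of all tested genes were lower.

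No synthetase reached the 1.8-fold difference used in the study's methods. By limma 0 of 35 combined that fold with an adjusted p under 0.05, against 3.32% of all genes in KD3 and 4.53% in KD4, and the count with the methods' t-test is 0 as well, since no member has that fold. Before adjustment, 16 members in KD3 and 22 in KD4 had a limma p under 0.05, as did 32.7% and 40.1% of all tested genes. The 95% intervals of all members lay inside a log2 difference of 0.85 in either direction, which is 1.8-fold. The widest limits were -0.80 for AARS1 and 0.68 for MARS2, both in KD3.

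**Figure D1:**
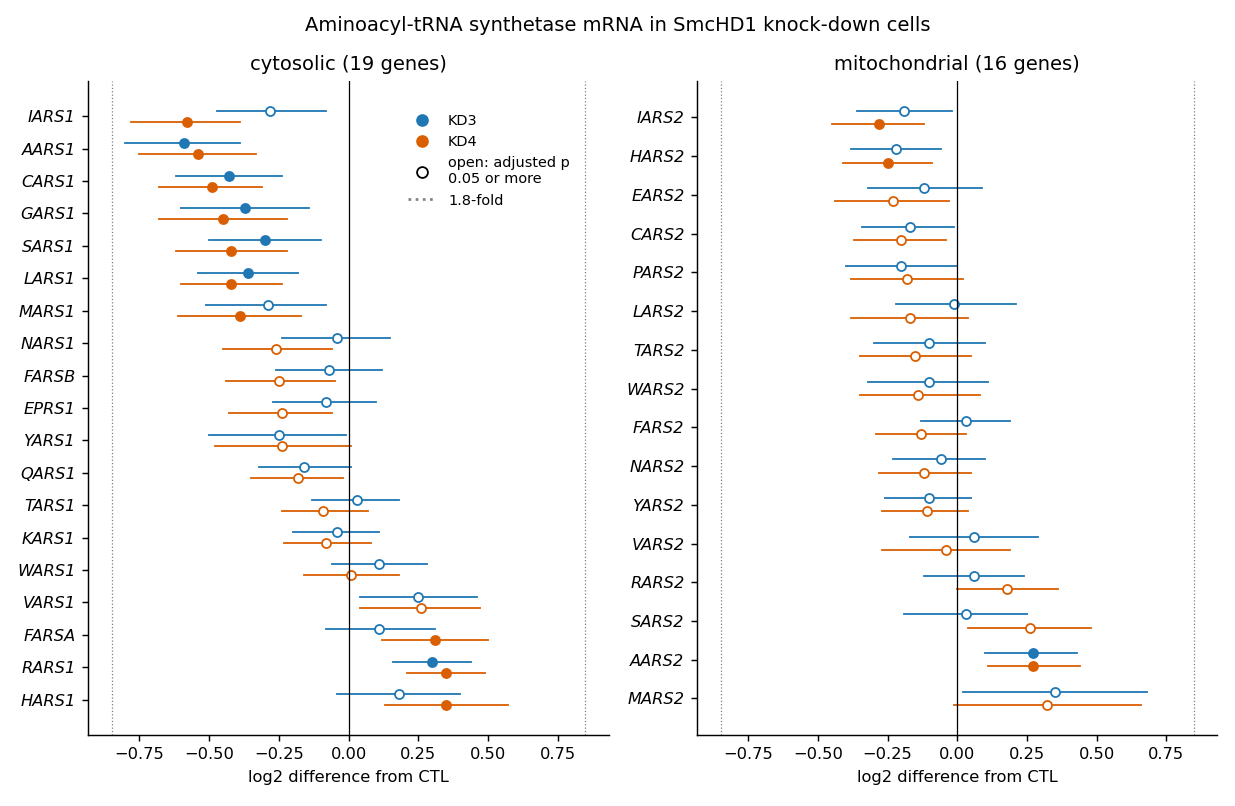
Log2 difference from CTL (x axis) of the 19 cytosolic (left) and 16 mitochondrial (right) synthetase genes in KD3 (blue) and KD4 (orange), with 95% intervals from limma over 9 arrays; filled points had an adjusted p under 0.05 and dotted lines mark 1.8-fold. The filled points on the lower side are mostly cytosolic, and no interval crosses a dotted line.

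AARS1 charges the cytosolic alanine tRNA. Its normalized log2 signal was 10.07, 10.16 and 10.38 on the CTL arrays, 9.59, 9.66 and 9.58 in KD3, and 9.63, 9.76 and 9.61 in KD4. All 6 knock-down arrays lay below the lowest CTL array, and CTL replicate 3 was the highest array. AARS1 fell, with a log2 difference of -0.59 in KD3 (standard error 0.0909, limma adjusted p = 0.00268) and of -0.54 in KD4 (limma adjusted p = 0.00313). The arrays were spread over 2 slides that each held all groups, and within them the log2 difference was -0.61 and -0.48 in KD3 and -0.59 and -0.44 in KD4. CTL replicate 1 and KD4 replicate 1 were the only arrays of their groups on slide 2, as was KD3 replicate 2 on slide 1.

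CARS1, the cytosolic cysteine enzyme, gave 8.84, 8.87 and 8.89 in CTL, 8.59, 8.37 and 8.35 in KD3, and 8.42, 8.38 and 8.31 in KD4. The CTL arrays were close together and above every knock-down array, with KD3 replicate 1 nearest to them. The log2 difference was -0.43 in KD3 (standard error 0.0816, limma adjusted p = 0.00718) and -0.49 in KD4 (limma adjusted p = 0.00283).

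LARS1, the leucine enzyme, is also known as a leucine sensor for mTORC1, the kinase complex that couples growth to nutrients. It gave 12.93, 13.05 and 13.03 in CTL, 12.74, 12.66 and 12.53 in KD3, and 12.60, 12.51 and 12.65 in KD4. No knock-down array reached the CTL range. The log2 difference was -0.36 in KD3 (standard error 0.0788, limma adjusted p = 0.0141) and -0.42 in KD4 (limma adjusted p = 0.00527).

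GARS1 supplies the glycine enzyme of both compartments from a single gene. It gave 11.66, 11.48 and 11.81 in CTL, 11.24, 11.42 and 11.16 in KD3, and 11.23, 11.18 and 11.18 in KD4. The groups did not overlap, but KD3 replicate 2 came close to CTL replicate 2. GARS1 fell, with log2 differences of -0.37 in KD3 (standard error 0.101, limma adjusted p = 0.0325) and of -0.45 in KD4 (limma adjusted p = 0.0112), and with the slide as a block the KD3 value no longer passed (limma adjusted p = 0.0632). It was also lost in 7 of 9 fits with an array left out, all but those without KD3 replicate 2 or CTL replicate 2.

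SARS1, which charges the serine tRNA and also the selenocysteine tRNA before its conversion, gave 14.41, 14.48 and 14.72 in CTL, 14.23, 14.30 and 14.19 in KD3, and 14.13, 14.09 and 14.13 in KD4. Every knock-down array was below CTL, and CTL replicate 3 again was the highest array. The log2 difference was -0.30 in KD3 (standard error 0.0883, limma adjusted p = 0.0459) and -0.42 in KD4 (limma adjusted p = 0.0083). The KD3 value was the closest to the threshold of all members called, and it did not pass with the slide as a block (limma adjusted p = 0.084) or after scaling to the 75th percentile (limma adjusted p = 0.0832). With an array left out it passed only without CTL replicate 1.

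RARS1, the arginine enzyme, went the other way. It gave 14.67, 14.60 and 14.61 in CTL, 14.93, 14.93 and 14.91 in KD3, and 14.99, 14.92 and 15.02 in KD4. All knock-down arrays lay above all CTL arrays, with little spread within any group. RARS1 rose by 0.30 in KD3 (standard error 0.0615, limma adjusted p = 0.0109) and by 0.35 in KD4 (limma adjusted p = 0.0038).

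AARS2, the mitochondrial alanine enzyme, was the only mitochondrial member to pass in both knock-downs. It gave 11.33, 11.45 and 11.34 in CTL, 11.73, 11.63 and 11.57 in KD3, and 11.70, 11.59 and 11.65 in KD4. The groups did not overlap. AARS2 rose by 0.27 in KD3 (standard error 0.0727, limma adjusted p = 0.0331) and by 0.27 in KD4 (limma adjusted p = 0.0233), and with the slide as a block the KD3 value did not pass (limma adjusted p = 0.0634). The call was lost in 6 of 9 fits with an array left out in KD3, and in KD4 without KD4 replicate 1 or 3 or CTL replicate 1 or 3.

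**Figure D2:**
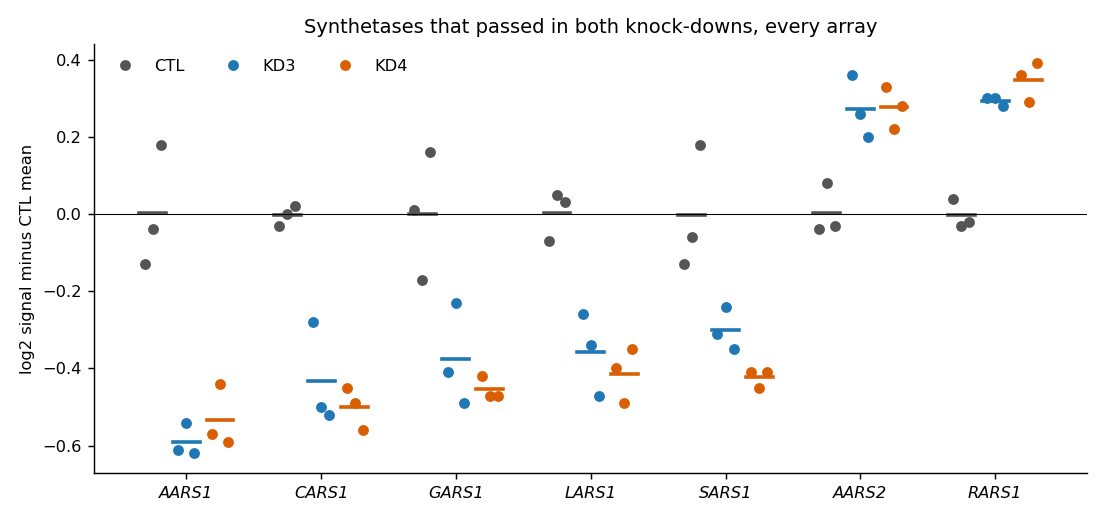
Log2 signal of each array minus the CTL mean (y axis) for the 7 synthetases that passed in both knock-downs, with 3 points per group and a bar at the group mean. In all 7 genes the KD3 and KD4 points do not overlap with the CTL points, and CTL is spread most widely for AARS1, GARS1 and SARS1.

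A further 6 members passed in KD4 and not in KD3. The largest of these differences was that of IARS1, the cytosolic isoleucine enzyme, which fell in KD4 with a log2 difference of -0.58 (standard error 0.0861, limma adjusted p = 0.00163) and stood at -0.28 in KD3 (adjusted p = 0.0537). Its signal was 14.02 to 14.23 in CTL, 13.73 to 13.94 in KD3 and 13.46 to 13.60 in KD4, so that the 3 groups formed 3 separate steps. Its other 2 probes were lower as well, by -0.30 (limma adjusted p = 0.0224) and -0.45 (adjusted p = 0.0512) in KD4. In KD3 they stood at -0.11 and -0.20 (limma adjusted p = 0.409 and 0.403) and overlapped with CTL. The 3 steps thus hold for the brightest probe only. With the median over the IARS1 probes the KD4 difference was -0.30 (limma adjusted p = 0.0219). MARS1, the cytosolic methionine enzyme, fell in KD4, with -0.39 (limma adjusted p = 0.0174), with -0.29 in KD3 (adjusted p = 0.0636). Its second probe gave -0.14 in KD4 (limma adjusted p = 0.294) and -0.07 in KD3, so that the 2 MARS1 probes disagree in whether they passed.

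Among the cytosolic genes HARS1 and FARSA rose in KD4. HARS1, the cytosolic histidine enzyme, had a log2 difference of 0.35 in KD4 (limma adjusted p = 0.0258) and 0.18 in KD3 (adjusted p = 0.233). FARSA, the catalytic subunit of the phenylalanine enzyme, had 0.31 in KD4 (limma adjusted p = 0.0259) and 0.11 in KD3 (adjusted p = 0.401). FARSB, the other subunit of the same enzyme, pointed the opposite way without passing, at -0.25 in KD4 (limma adjusted p = 0.0588). The mitochondrial isoleucine and histidine enzymes IARS2 and HARS2 fell in KD4, to log2 differences of -0.28 (limma adjusted p = 0.0206) and -0.25 (limma adjusted p = 0.0269). In KD3 they stood at -0.19 and -0.22, neither of which passed. Of these 6 genes, IARS1 kept its KD4 call with any single array left out. FARSA lost it without any of the KD4 arrays, CTL replicate 2 or CTL replicate 3 (highest limma adjusted p = 0.0797), and HARS1 without any of the KD4 arrays or CTL replicate 3 (0.0782). MARS1 lost it when KD4 replicate 2 or either of CTL replicates 2 and 3 was left out, HARS2 without KD4 replicate 1 or 2 or CTL replicate 1 or 3, and IARS2 without KD4 replicate 3 or CTL replicate 3. HARS1 and HARS2 are neighbouring genes that start head to head, and in KD4 they moved in opposite directions.

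The direct comparison of the knock-downs separated no synthetase. Between KD4 and KD3, 0 of 35 members passed by limma, against 2.51% of all tested genes (1.52% lower in KD4, 0.989% higher, and 0.442% with a 1.8-fold difference as well), 5 had an unadjusted p under 0.05 (19.1% of all genes did), and the methods' t-test also passed 0. These 5 were IARS1, NARS1 and FARS2, lower in KD4, and FARSA and SARS2, higher in KD4. IARS1 had the largest difference, -0.31 (95% interval -0.50 to -0.11, limma adjusted p = 0.102). A call in KD4 that is missing in KD3 is therefore not shown to be a difference between the shRNAs. SMCHD1 itself was lower in KD4 than in KD3, with a log2 value of -0.56 for KD4 minus KD3 (limma adjusted p = 0.0191).

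The other 22 members passed in neither knock-down. Among the cytosolic enzymes these were EPRS1, which charges both glutamate and proline tRNAs, FARSB, KARS1 for lysine, NARS1 for asparagine, QARS1 for glutamine, TARS1 for threonine, VARS1 for valine, WARS1 for tryptophan and YARS1 for tyrosine. They ranged from -0.25 (YARS1) to 0.25 (VARS1) in KD3, and from -0.26 (NARS1) to 0.26 (VARS1) in KD4. For VARS1 all 6 knock-down arrays lay above the CTL range, and for QARS1 and YARS1 all 6 lay below it. Among the mitochondrial enzymes they were CARS2, EARS2, FARS2, LARS2, MARS2, NARS2, PARS2, RARS2, SARS2, TARS2, VARS2, WARS2 and YARS2, which charge in the matrix the amino acids of their cytosolic namesakes, PARS2 the proline and EARS2 the glutamate tRNA. These ranged from -0.20 (PARS2) to 0.35 (MARS2) in KD3 and from -0.23 (EARS2) to 0.32 (MARS2) in KD4. MARS2 had the widest spread of all members, with 6.51, 6.30 and 5.90 in CTL.

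Without regard to a test, arrays of KD3 and CTL did not overlap for 9 cytosolic genes on the lower and 2 on the higher side, and for 5 and 2 mitochondrial genes. Over all tested genes 17.5% were separated in this way on the lower and 18.2% on the higher side. In KD4, 12 cytosolic genes were separated on the lower and 4 on the higher side, and 7 and 2 mitochondrial genes, where the shares of all genes were 21.6% and 23.1%.

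The cytosolic genes were then grouped by their link to the integrated stress response. A list of 12 cytosolic synthetases known as ATF4 targets held AARS1, CARS1, EPRS1, GARS1, IARS1, LARS1, MARS1, NARS1, SARS1, TARS1, WARS1 and YARS1. Of these, 5 fell in KD3 and 7 in KD4, and 0 rose, with a median log2 difference of -0.29 and -0.40. Of the other 7 cytosolic genes 0 fell in either, 1 rose in KD3 (RARS1) and 3 in KD4 (FARSA, HARS1 and RARS1), with medians of 0.11 and 0.26. Among all tested genes 10.5% fell and 9.57% rose in KD3, and 14.8% and 13.5% did in KD4. At an unadjusted p under 0.05 from limma the counts were 8 and 9 of the 12, and 2 and 6 of the 7, where 32.7% and 40.1% of all genes reached it. By array, the median deviation of the 12 genes from the CTL mean was -0.23, -0.23 and -0.39 in KD3 and -0.39, -0.45 and -0.33 in KD4, and the CTL arrays stood at -0.0848, -0.0209 and 0.0817. All 6 knock-down arrays were thus below the CTL arrays. The list was written with earlier results of these data known, so its counts are a description.

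ATF4 binds a composite element shared with C/EBP proteins, known by the letters TGATGNAA. This element was looked for on both strands in RefSeq promoters of the GRCh38.p14 build, from 250 bases before to 50 bases after each gene start. Of the members 30 had an entry, and the 5 without were LARS1, VARS1, YARS1, AARS2 and VARS2. The letters were found in 7 of 16 cytosolic genes, all of them on the list of 12, in 1 of 14 mitochondrial genes, YARS2, and in 4.46% of all 27305 genes with an entry. The 8 members are shown because the genes that hold these letters include 5 of the 9 that fell in KD4. They were thus picked by these same data and are a description. LARS1, another of the 9, had no entry and could not be searched. ASNS, the asparagine synthetase gene, is set beside the 8. It is one of the 5 of 16 stress response reference genes with an entry that hold the letters, where 11 do not. Each run is read 5′ to 3′ along the gene's strand, with the matched letters in capitals, on either strand. The positions are chr16:70289675-70289704 (AARS1, minus strand), chr11:3057407-3057436 (CARS1, minus), chr7:30594834-30594863 (GARS1, plus), chr9:92293692-92293721 (IARS1, minus), chr12:57488053-57488082 (MARS1, plus), chr18:57621804-57621833 (NARS1, minus), chr5:33440956-33440985 (TARS1, plus), chr12:32756076-32756105 (YARS2, minus) and chr7:97872458-97872487 (ASNS, minus).
AARS1: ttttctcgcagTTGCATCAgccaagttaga
CARS1: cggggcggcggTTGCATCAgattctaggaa
GARS1: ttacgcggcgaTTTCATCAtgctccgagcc
IARS1: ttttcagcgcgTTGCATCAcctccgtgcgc
MARS1: gccggttccggTTGCATCAgcgagggattc
NARS1: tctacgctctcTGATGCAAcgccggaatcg
TARS1: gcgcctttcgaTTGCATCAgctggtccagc
YARS2: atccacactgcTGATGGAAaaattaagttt
ASNS: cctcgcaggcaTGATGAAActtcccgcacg

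In the genes of CARS1, IARS1, MARS1 and TARS1 the match began within 13 bases of a gene start, while in AARS1 it began 187 bases before the start and in YARS2 197 bases before. Among the 16 cytosolic genes with an entry, those with the letters had a median log2 difference of -0.29 in KD3 and -0.45 in KD4, and 3 and 5 of the 7 fell. Those without had medians of -0.04 and -0.08, with 1 of 9 lower in each and 1 and 3 higher. Among all tested genes 10.5% fell and 9.57% rose in KD3, and 14.8% and 13.5% did in KD4. All 7 genes with the letters are on the list of 12, which was written with earlier results known. This split is therefore no separate check of that list's counts. The gene without a match that fell was SARS1. NARS1 and TARS1 hold the letters and did not pass, with -0.26 and -0.09 in KD4. A second motif, that of the nuclear respiratory factor NRF1, was found in 6 of 30 members (FARSB, IARS2, MARS2, PARS2, SARS1 and TARS1) and in 6.98% of all genes. The 3 cytosolic genes with it had medians of -0.07 in KD3 and -0.25 in KD4, and 1 fell in each. The 13 cytosolic genes without it had -0.08 and -0.24, with 3 and 5 lower and 1 and 3 higher. A match in these windows is a description of letters and not of binding.

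The multisynthetase complex held members that fell and a member that rose. Of its 7 synthetase genes, EPRS1, IARS1, KARS1, LARS1, MARS1, QARS1 and RARS1, 1 fell and 1 rose in KD3, and 3 fell and 1 rose in KD4. Over all tested genes 10.5% fell and 9.57% rose in KD3, and 14.8% and 13.5% did in KD4. LARS1 fell and RARS1 rose in both. The scaffold genes AIMP1, AIMP2 and EEF1E1 were not lower in either knock-down. EEF1E1 rose in KD4 by 0.33 (limma adjusted p = 0.0272), and the log2 differences of AIMP1 and AIMP2 in KD4 were 0.15 and 0.09. Of the 12 cytosolic genes outside the complex 4 fell in each knock-down, with 0 higher in KD3 and 2 in KD4. By the structural class of the catalytic domain, the 9 cytosolic class I genes had 2 lower and 1 higher in KD3 and 4 lower and 1 higher in KD4, and the 9 class II genes had 3 lower and 0 higher, and 3 lower and 2 higher.

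The cytosolic and mitochondrial enzymes of an amino acid were set side by side in 17 pairs covering 16 amino acids. The difference of the cytosolic gene was the lower one in 8 pairs in KD3 and in 11 pairs in KD4. The widest gap was that of alanine, where AARS1 fell and AARS2 rose, and the differences lay -0.86 apart in KD3 and -0.81 in KD4. For methionine MARS1 lay below MARS2 by -0.64 and -0.71, although MARS2 passed in neither knock-down. For serine the gap was -0.32 in KD3 and -0.68 in KD4, with SARS2 at 0.26 in KD4 (limma adjusted p = 0.0754). Histidine showed the reverse order, with gaps of 0.40 and 0.60. The log ratio of the cytosolic to the mitochondrial signal did not overlap between KD4 and CTL arrays in 9 pairs, 5 lower (alanine, cysteine, isoleucine, methionine and serine) and 4 higher (HARS1, RARS1, VARS1 and FARSA with their partners). In KD3 it did not overlap in 6 pairs, 4 lower (alanine, cysteine, leucine and methionine) and 2 higher (histidine and arginine). Each gene entered by its brightest probe. With the median over its probes IARS1 stood at -0.30 in KD4, beside -0.28 for IARS2, and the second MARS1 probe stood at -0.14. The isoleucine and methionine gaps therefore depend on the probe. The pairs are not all separate, since EPRS1 entered for glutamate and proline, and FARS2 was set against both FARSA and FARSB. These gaps were not tested as such, and no share over other pairs of genes was computed.

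**Figure D3:**
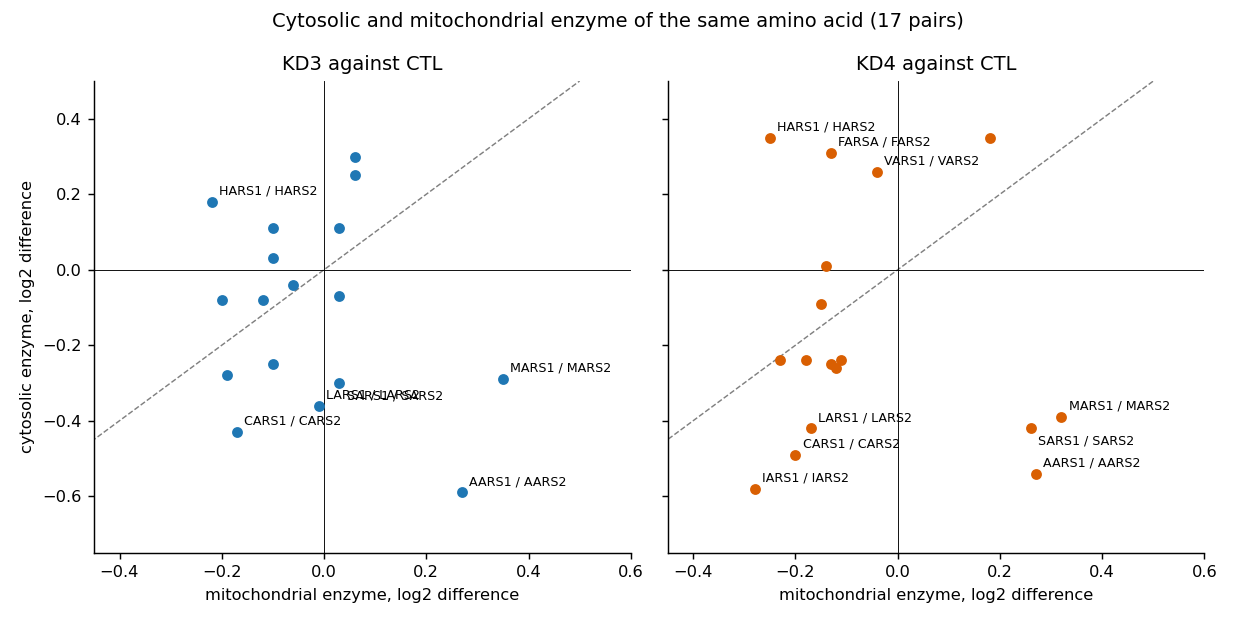
Log2 difference from CTL of the cytosolic enzyme (y axis) against that of the mitochondrial enzyme for the same amino acid (x axis) in KD3 (left) and KD4 (right), 17 pairs; the dashed line marks equal differences and pairs at least 0.25 apart are named. AARS1 / AARS2 lies farthest below the line and HARS1 / HARS2 farthest above it in both panels.

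By array, the median deviation of the 19 cytosolic genes from their CTL means was -0.18, -0.14 and -0.14 in KD3 and -0.27, -0.19 and -0.28 in KD4. The 16 mitochondrial genes gave -0.0284, -0.0757 and -0.0609 in KD3 and -0.15, -0.0848 and -0.15 in KD4. On the CTL arrays these medians stayed between -0.0517 and 0.0461. Every KD3 and KD4 array was below CTL for the cytosolic genes, whereas for the mitochondrial genes KD3 replicate 1 lay within the CTL range. Within the slides the cytosolic median was -0.19 and -0.13 in KD3 and -0.27 and -0.18 in KD4.

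TARS3, a further cytosolic threonine enzyme that is not among the members, passed in neither knock-down, with log2 differences of -0.03 and -0.17.

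Of 11 tested genes that work with charged tRNA, 3 fell in KD3 and 3 in KD4, and 0 and 2 rose. The 11 include the scaffold genes of the multisynthetase complex described above. The shares of all tested genes were 10.5% and 14.8% lower, and 9.57% and 13.5% higher. XPOT, the export receptor that carries tRNA out of the nucleus, fell, with log2 differences of -0.38 in KD3 (limma adjusted p = 0.0233) and -0.58 in KD4 (limma adjusted p = 0.00264). MTFMT, which formylates the mitochondrial initiator tRNA, fell, with -0.28 and -0.56 (limma adjusted p = 0.0173 and 4.8e-04), and DTD1, a deacylase that removes D-amino acids from tRNA, fell, with -0.30 and -0.25 (limma adjusted p = 0.0223 and 0.0308). QRSL1, a subunit of the amidotransferase that makes mitochondrial glutamine tRNA, rose in KD4 by 0.45 (limma adjusted p = 0.0425). The other gene that rose in KD4 was the scaffold gene EEF1E1, already given above.

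Translation factors showed no common direction. A list of 13 genes of mitochondrial translation held factors and also enzymes that act on tRNA, among them QRSL1 and MTFMT. Of these 13, 1 rose and 1 fell in KD3, and 2 rose and 1 fell in KD4, with medians of 0.0128 and -0.0215. GFM1, the mitochondrial elongation factor G, rose by 0.40 (limma adjusted p = 0.00634) and 0.45 (limma adjusted p = 0.00268). The other gene that rose in KD4 was QRSL1 and the one that fell was MTFMT, both already counted above with the genes that work with charged tRNA. GFM1 was thus the only factor among the 13 to pass. Of 14 tested cytosolic factors 2 rose and 1 fell in KD3, and 3 rose and 3 fell in KD4. For both lists the shares of all tested genes were 9.57% higher and 10.5% lower in KD3, and 13.5% and 14.8% in KD4. EIF5, which triggers GTP hydrolysis on the initiation factor eIF2, rose by 0.55 and 0.70 (limma adjusted p = 0.00618 and 0.00138), and EIF4A1, an RNA helicase of initiation, rose by 0.29 and 0.56 (limma adjusted p = 0.0315 and 0.00123).

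The genes that share the stress response with the synthetases were lower by more. Of 20 reference genes, 11 fell and 0 rose in KD3, and 16 fell and 1, ATF5, rose in KD4, with medians of -0.51 and -0.67. Among all tested genes 10.5% fell and 9.57% rose in KD3, and 14.8% and 13.5% did in KD4. CHAC1, which degrades glutathione, fell, with log2 differences of -1.25 in KD3 (limma adjusted p = 0.0042) and -2.17 in KD4 (limma adjusted p = 2.1e-04). ASNS fell as well, to -0.78 (limma adjusted p = 0.0181) and -1.13 (limma adjusted p = 0.00253), and the transcription cofactor NUPR1 fell in KD4 with -1.14 (limma adjusted p = 0.0317) but stood at -0.39 in KD3. The ATF4 transcript itself fell in KD4, with -0.32 (limma adjusted p = 0.0168) and stood at -0.16 in KD3, and ATF4 protein was not measured here. The CTL arrays differed among themselves for these genes, with median deviations of -0.18, -0.0614 and 0.25, while the knock-down arrays lay between -0.71 and -0.40.

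**Figure D4:**
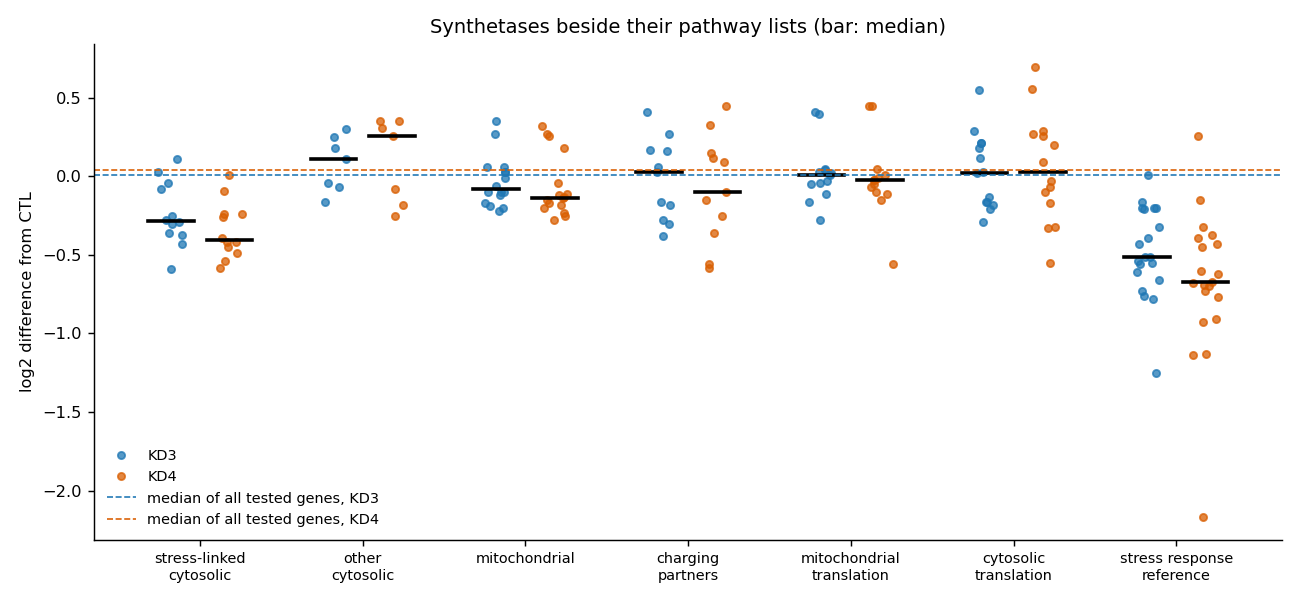
Log2 difference from CTL (y axis) of each gene in KD3 (blue) and KD4 (orange) by list, with a black bar at the list's median and dashed lines at the median of all tested genes. The stress-linked cytosolic synthetases (medians -0.29 and -0.40) lie between the other synthetases and the stress response reference genes (-0.51 and -0.67).

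How many members passed depended on single arrays and on the fit. AARS1, CARS1, LARS1 and RARS1 in KD3, and these with GARS1, IARS1 and SARS1 in KD4, passed in each of 18 alternative limma fits. Without CTL replicate 3 the number passing was 4 in KD3 and 7 in KD4, where 14.4% and 21.5% of all genes passed, so that the share of members was below that of all genes in each. Without KD3 replicate 1, KD4 replicate 1 or KD4 replicate 3 it was 4 in KD3. After Benjamini-Hochberg adjustment the methods' t-test passed 0 members in KD3 and 6 in KD4, of which CARS1, FARSA, IARS1, LARS1 and RARS1 also passed by limma and CARS2 did not. That test passed 1.69% of all genes in KD3 and 6.17% in KD4. All 13 members that passed in either knock-down kept 1 sign within both slides in both knock-downs. In KD4 none of their arrays overlapped with CTL, and in KD3 only those of FARSA and HARS1 did. Without overlap the sign within a slide is fixed, so for those members it is no separate check.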

How the data were processed

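Scanner files of 9 one-color Agilent arrays were used, 3 for each of KD3, KD4 and CTL as the sample labels give them. Per the file headers, the deposited values are spot intensities from Agilent Feature Extraction 10.10.1.1, of which the green processed signal, background-subtracted by the authors' scanner software, was taken. The authors also deposited a table of quantile-normalized log2 values from GeneSpring, which served as an alternative and differed from the values here by a median of -0.0745.

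Control spots and spots marked as non-uniform or population outliers (260 to 634 of 58717 per array) were left out, the log2 values of the 9 arrays were quantile normalized together, spots of a probe were averaged and 21 probes without a value were dropped. Probes well above background on all arrays of at least 1 group were tested (32090 probes, 26701 genes), each gene by its brightest tested probe. All members were well above background on all 9 arrays. Probes were named by RefSeq accession through a GRCh38.p14 gene table (25422 of 42405 named), and the array design is of an earlier build, so no probe coordinates are given. Groups were compared with limma 3.58.1 in R 4.3.3 (lmFit and eBayes, a mean per group), with Benjamini-Hochberg adjustment over all tested probes. "Passed" means an adjusted p under 0.05. The fit was tested on simulated data with planted differences larger than that of any synthetase, so this does not show how it handles differences as small as theirs.

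All members were named, and single array values were given for those passing in the same direction in both knock-downs. The members and gene lists were chosen with earlier results of these data known. Some synthetase genes outside the members are not reported here. Alternatives were the 75th percentile scaling, normexp with an offset of 50, the authors' table, no filter or a stricter one on dim probes, the methods' t-test, each pair of groups alone, replicate or slide as a block, the median over probes, the 1.8-fold threshold and leaving out each array.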

Additional observations from a re-analysis of the deposited data

Results flagged for a closer look

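SMCHD1, the knocked-down gene, differed between the knock-downs themselves. Its brightest probe was lower in KD4 than in KD3, at -0.56 on the log2 scale for KD4 minus KD3 (limma adjusted p = 0.0191), and all 3 KD4 arrays lay below all 3 KD3 arrays. Of its other probes, 1 passed (-0.51, limma adjusted p = 0.0139) and 1 did not (-0.54, limma adjusted p = 0.0892). No synthetase differed in this direct comparison by limma, where 5 of 35 had an unadjusted p under 0.05, as did 19.1% of all tested genes.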

How the results depend on the processing

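The number of synthetases passing in KD3, 7 by limma, was 4 with each pair of groups fitted alone, with the slide as a block and with the replicate number as a block, 0 by the methods' t-test, and between 4 and 8 with an array left out. In KD4, 13 passed by limma, 6 by the methods' t-test and 7 to 16 with an array left out, the 16 without KD3 replicate 1. With the 1.8-fold threshold 0 passed in each. Correction by normexp gave 9 and 19. The deviations of arrays of the same number correlated at -0.0772 to 0.145, and those of different number at -0.14 to 0.141, so the numbers were not taken as a pairing. Between KD4 and CTL alone, though, same numbers gave 0.0734 to 0.145 and different numbers -0.115 to -0.018. With the replicate number as a block, 12 passed in KD4, without FARSA (limma adjusted p = 0.057). The cytosolic median in KD3 was -0.058 after 75th percentile scaling, -0.12 with normexp and -0.131 to -0.0707 with an array left out. The mitochondrial median in KD3 was -0.0544 with normexp and -0.108 to -0.0326 with an array left out. Their difference in KD3 was -0.0652 with normexp and -0.0793 to 0.0127 with an array left out, so that its sign is not fixed. In KD4 it was -0.0852 after 75th percentile scaling and -0.158 to -0.0584 with an array left out. None of the 13 members that passed in either knock-down changed sign, and the other 22 were not followed through the alternatives. The causes were not tested.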
